A study of Homo sapiens with 9 samples.

Results

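The interferon response is described here in human RKO colorectal cancer cells through 46 genes that sense double-stranded RNA, carry the interferon signal or are induced by it. The members were given as a list of gene names, and a probe was taken for a member where the platform annotation gave that current or earlier name alone. Of the 46 members, 44 had such a probe and 40 were tested, out of 17559 genes with a probe and 13391 genes tested on the array. The rule uses gene names and no measured level.

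Cells answer double-stranded RNA in their interior with a small set of sensors. RIG-I-like helicases and TLR3 signal towards interferon production, PKR (encoded by EIF2AK2) blocks translation, and the OAS enzymes activate RNA decay. Secreted type I interferon then acts through JAK kinases, and factors such as STAT2 and IRF9 act at the interferon-stimulated response element (ISRE) in the promoters of induced genes, and synthetic RNA duplexes delivered with lipids can engage the same sensors.

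All 9 samples were RKO cells whose DICER gene, which encodes the RNase that processes miRNA precursors, was disrupted at exon 5. Each received double-stranded RNA oligonucleotides with lipofectamine 3000, the control included, and total RNA was taken 48 h later. The groups were a negative control, miR-200c native, miR-200c methylated, miR-21 native, miR-21 methylated, let7a native, let7a methylated, miR-17 native and miR-17 methylated. Each group was measured on 1 one-colour array, so single arrays were compared without a test. The labels name neither the strand, the methylated base nor the control sequence, and no untransfected or interferon-treated cells were analysed here. The labels do not say how many clones the edited cells come from.

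Levels are log2 intensities after background correction and quantile normalization, and a level can be compared between arrays for 1 gene but not between genes. A probe counted as detected where its raw intensity exceeded the mean of the 2680 blank spots on that array by over 2 SD. On that measure 69.4% to 78.2% of all probes were detected per array. Of the epithelial markers, 6 of 7 with a probe were detected on all 9 arrays, KRT18 among them, while KRT19 was detected on 1. Of the blood cell markers, PTPRC, MS4A1 and NKG7 were detected on no array, while 5 of 8, with CD68 up to 13.38, were detected on all. Of the fibroblast and endothelial markers, COL1A1, COL1A2 and LUM were detected on none and DCN was detected on all 9. Mean levels over the arrays ranged from 7.43 to 7.61 for the epithelial list, from 7.12 to 7.28 for the blood list and from 6.06 to 6.10 for the fibroblast and endothelial list.

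A pair of arrays stood apart from their labels. Levels of 16072 features were centred on the mean of the miRNA arrays of the same form, native or methylated. The native and methylated arrays of miR-200c then correlated at 0.70 and those of miR-21 at 0.46. The native let7a array correlated at -0.22 with the array labelled let7a methylated but at 0.56 with the one labelled miR-17 methylated. The native miR-17 array correlated at -0.16 with the array labelled miR-17 methylated and at 0.69 with the array labelled let7a methylated. Arrays of the same form share their centring, and these values carry no test. Both arrays keep their labelled names here, and the members' tests and the tests of the other pathway lists are given with and without them. The scanner's slope from the first to the second gain was 0.453 on the array labelled miR-17 methylated, against 0.409 or 0.41 on the other 8, and its part in the results was not tested.

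The mature sequences of the 4 miRNAs are shown, with the seed of each marked. They are RefSeq's (GRCh38.p14), for the arm usually meant by each name, since the labels do not name the arm. Capitals mark the seed, bases 2 to 8. No seed is shared between the 4.
hsa-miR-200c-3p: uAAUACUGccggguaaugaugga
hsa-miR-21-5p: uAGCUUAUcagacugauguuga
hsa-let-7a-5p: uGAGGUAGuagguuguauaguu
hsa-miR-17-5p: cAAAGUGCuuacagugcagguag

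Promoter windows of 5 members that the results turn on are shown with their ISRE letters. Each holds 250 bases before and 50 bases after a start listed in RefSeq's promoter table (GRCh38.p14), 5′ to 3′ on the gene's strand. For ISG20 that start lies inside the annotated gene and not at its first base. Capitals mark every match, on either strand, to GAAANNGAAA, and matches may overlap. They are ISG15 at chr1:1013247-1013546 (plus strand), IFI6 at chr1:27672143-27672442 (minus strand), IFIT1 at chr10:89392373-89392672 (plus strand), ISG20 at chr15:88638766-88639065 (plus strand) and EIF2AK2 at chr2:37156931-37157230 (minus strand).
ISG15: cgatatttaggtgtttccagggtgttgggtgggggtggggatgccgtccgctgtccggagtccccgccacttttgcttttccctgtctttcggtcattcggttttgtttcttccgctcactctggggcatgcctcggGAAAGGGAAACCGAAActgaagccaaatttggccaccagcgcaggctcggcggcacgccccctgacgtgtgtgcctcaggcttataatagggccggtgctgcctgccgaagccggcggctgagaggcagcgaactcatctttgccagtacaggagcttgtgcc
IFI6: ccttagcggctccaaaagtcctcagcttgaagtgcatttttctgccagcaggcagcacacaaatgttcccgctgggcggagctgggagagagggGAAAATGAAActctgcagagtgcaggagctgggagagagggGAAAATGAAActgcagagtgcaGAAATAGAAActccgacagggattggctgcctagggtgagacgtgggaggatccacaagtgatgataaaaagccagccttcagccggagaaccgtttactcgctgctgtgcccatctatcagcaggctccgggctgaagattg
IFIT1: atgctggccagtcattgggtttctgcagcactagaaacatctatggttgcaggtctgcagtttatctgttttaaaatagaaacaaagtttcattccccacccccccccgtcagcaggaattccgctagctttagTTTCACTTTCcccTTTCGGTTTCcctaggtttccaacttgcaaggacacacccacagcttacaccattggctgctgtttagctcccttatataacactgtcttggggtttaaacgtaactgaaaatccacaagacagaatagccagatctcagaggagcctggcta
ISG20: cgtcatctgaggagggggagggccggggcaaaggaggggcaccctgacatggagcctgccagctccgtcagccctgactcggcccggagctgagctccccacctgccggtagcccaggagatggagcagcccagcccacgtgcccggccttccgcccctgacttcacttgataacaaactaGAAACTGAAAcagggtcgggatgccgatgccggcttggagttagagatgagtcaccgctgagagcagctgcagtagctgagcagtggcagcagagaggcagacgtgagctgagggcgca
EIF2AK2: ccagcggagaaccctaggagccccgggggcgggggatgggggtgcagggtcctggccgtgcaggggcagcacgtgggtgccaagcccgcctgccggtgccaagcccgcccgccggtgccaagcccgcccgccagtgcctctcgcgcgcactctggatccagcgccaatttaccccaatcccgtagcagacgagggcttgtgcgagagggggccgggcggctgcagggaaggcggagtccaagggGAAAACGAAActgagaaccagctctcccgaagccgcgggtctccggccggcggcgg

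The IFI6 window held 3 matches, those of ISG15 and IFIT1 held 2 each, and those of ISG20 and EIF2AK2 held 1. Among the 38 members with a window in the table, 21 (55.3%) held a match, against 1255 of all 35116 windows (3.57%). The interferon gamma activation site (GAS), searched as TTCNNNGAA, was found in 10 of the 38 member windows (26.3%) and in 2689 of all windows (7.66%). PSMB9 and RIGI were among the members whose window held no GAAANNGAAA, which says only that these letters are not in that window. The matches describe sequence and not binding.

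Most members were measurable 48 h after lipofection on every array, the control included. Of the 44 members with a probe, 38 were detected on all 9 arrays, and 20 of the 40 tested stayed at or above 2 times the detection limit on all 9. No share over all genes stands beside these counts, so they are not read as a result about the members. Under the rule of detection on at least 5 arrays, 40 of the 44 were tested, beside 13391 of all 17559 genes with a probe. IRF9, the DNA-binding partner of STAT2, was detected on 7 arrays, and IFIT1, which binds viral RNA 5′ ends, on 6. IFI44 was detected on 2 arrays, the RIG-I-like regulator DHX58 and the OAS relative OASL on 1 each, and IFI44L on none. The transmembrane antiviral genes IFITM2 and IFITM3 had no probe of their own name here. Signal on the IFITM1 probe may include these related genes, which was not checked.

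**Figure D1:**
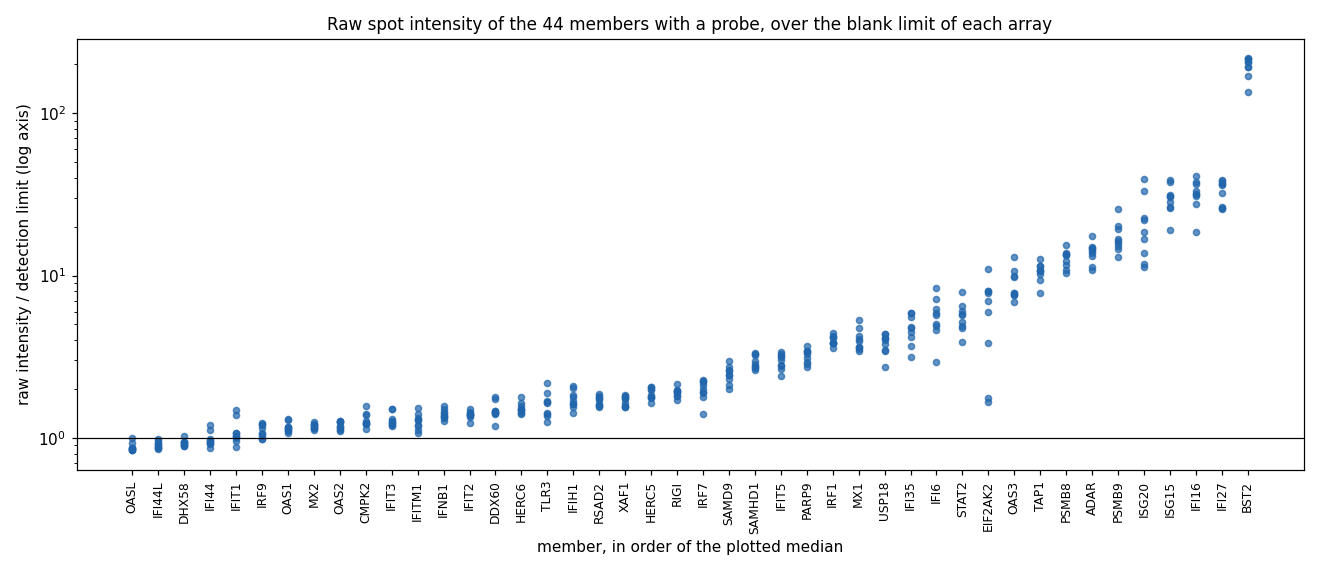
Raw spot intensity of the 44 members with a probe, divided by the detection limit of the same array (log axis), 1 point per array and member. Points above the line at 1 are detected. OASL, IFI44L, DHX58 and IFI44 sit near or under the line on most arrays, and 20 members stay at or above 2 on all 9. Heights are not compared between members, since each probe has its own brightness.

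The range from lowest to highest array had a median of 0.38 on the log2 scale over the 40 tested members, beside 0.31 over all features. It was under 0.5 for 27 members, while 72.0% of all features were under 0.5. It reached 1 in 3 members, EIF2AK2, ISG20 and IFI6, and in 4.59% of all features.

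Among the sensors, EIF2AK2 varied most. EIF2AK2 encodes PKR, the kinase that is activated by double-stranded RNA and phosphorylates eIF2 alpha, and lies at chr2:37099210-37156980 (GRCh38.p14). In the sentences that follow, a pair of levels gives the native array first and the array labelled methylated second. EIF2AK2 had a log2 level of 8.50 on the control array, 8.68 and 8.36 with miR-200c, 8.09 and 7.50 with miR-21, 6.50 and 8.41 with let7a, and 6.36 and 8.66 with miR-17. The native let7a and native miR-17 arrays were thus the lowest, about a log2 unit under the next array, miR-21 methylated. The raw spot read 379 on the control array, 69.1 on native let7a and 58.4 on native miR-17, the last 1.65 times the detection limit. Only 1 probe carried the gene. Its 6 detected neighbour spots differed from the control by -0.18 to -0.02 on native let7a and by -0.73 to -0.04 on native miR-17.

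IFI16, a nucleic acid sensor of the nucleus and cytosol (chr1:158999976-159055151), was lowest with miR-200c. Its level was 10.62 on the control array, 9.88 and 10.08 with miR-200c, 10.43 and 10.72 with miR-21, 10.64 and 10.57 with let7a, and 10.29 and 10.23 with miR-17. Both miR-200c arrays were below the other 7. A second IFI16 probe read 10.36 on the control array, 9.28 and 9.60 with miR-200c, 10.17 and 10.07 with miR-21, 10.11 and 9.93 with let7a, and 10.24 and 10.27 with miR-17. On that probe too the miR-200c arrays were the lowest, while the miR-17 arrays were close to the control.

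TLR3, the endosomal receptor of double-stranded RNA (chr4:186069156-186088073), read 6.55 on the control array, 6.21 and 6.17 with miR-200c, 6.47 and 6.48 with miR-21, 6.57 and 6.23 with let7a, and 6.20 and 6.61 with miR-17. A group of 4 arrays, both of miR-200c, native miR-17 and the one labelled let7a methylated, lay at 6.17 to 6.23, and the other 5 at 6.47 to 6.61. All of these are dim levels, near the floor of 5.64 that the offset of 50 sets.

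The cytosolic helicases showed little spread. RIGI, which detects RNA 5′ triphosphates, read 6.68 on the control array, 6.60 and 6.51 with miR-200c, 6.64 and 6.66 with miR-21, 6.61 and 6.56 with let7a, and 6.54 and 6.60 with miR-17. IFIH1, which encodes MDA5 and detects long duplexes, read 6.49 on the control array, 6.54 and 6.63 with miR-200c, 6.43 and 6.47 with miR-21, 6.54 and 6.28 with let7a, and 6.45 and 6.54 with miR-17. On this probe of RIGI the control lay above all 8 miRNA arrays, but on its second probe methylated miR-21 read 6.54 and the control 6.53. For IFIH1 the control lay inside the span of the miRNA arrays.

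OAS3 makes the second messenger that switches on RNase L. Its level was 8.61 on the control array, 8.48 and 8.30 with miR-200c, 8.47 and 8.43 with miR-21, 8.82 and 8.74 with let7a, and 8.64 and 8.88 with miR-17. ADAR, which edits adenosines in duplex RNA and restrains its sensing, read 9.12 on the control array, 9.39 and 9.23 with miR-200c, 8.96 and 9.24 with miR-21, 9.30 and 9.26 with let7a, and 9.12 and 9.31 with miR-17. For both genes the control lay among the miRNA arrays. The other detected sensors, OAS1, OAS2 and DDX60, ranged from 5.99 to 6.11, from 6.05 to 6.13 and from 6.13 to 6.47.

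Among the signalling genes, the interferon gene itself had a narrow range. IFNB1, encoding interferon beta, read 6.22 on the control array, 6.29 and 6.25 with miR-200c, 6.25 and 6.28 with miR-21, 6.19 and 6.25 with let7a, and 6.31 and 6.21 with miR-17, a span of 0.12. Its levels passed the detection limit on all 9 arrays but are dim.

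STAT2 was lowest on the control array. It read 7.69 there, 7.97 and 7.98 with miR-200c, 7.81 and 7.89 with miR-21, 8.01 and 8.002 with let7a, and 8.07 and 8.20 with miR-17. IRF7, the factor that amplifies interferon alpha genes, was also lowest on the control, at 6.35 against 6.56 to 6.76 on the miRNA arrays (IRF7 was chosen after its values were seen). IRF1 ran the other way, at 7.65 on the control array, 7.58 and 7.39 with miR-200c, 7.62 and 7.60 with miR-21, 7.46 and 7.55 with let7a, and 7.37 and 7.47 with miR-17.

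The remaining signalling members overlapped the control. IRF9 read 6.01 on the control array, 5.92 and 6.02 with miR-200c, 5.90 and 5.93 with miR-21, 6.02 and 5.95 with let7a, and 6.06 and 6.04 with miR-17, and was not detected on the native miR-200c and native miR-21 arrays. USP18, which removes ISG15 and dampens receptor signalling, read 7.52 on the control array, 7.23 and 7.27 with miR-200c, 7.54 and 7.66 with miR-21, 7.54 and 7.44 with let7a, and 7.55 and 7.37 with miR-17. PARP9, an ADP-ribosyltransferase family member, read 7.203 on the control array, 7.50 and 7.25 with miR-200c, 7.23 and 7.35 with miR-21, 7.25 and 7.10 with let7a, and 7.03 and 7.23 with miR-17. For USP18 the pair of miR-200c arrays was the lowest of the 9.

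Among the effectors, ISG20 varied most. ISG20 encodes an exonuclease that degrades viral RNA (chr15:88635632-88656483). Its level was 9.46 on the control array, 9.74 and 9.75 with miR-200c, 9.68 and 9.91 with miR-21, 10.42 and 8.97 with let7a, and 8.84 and 10.45 with miR-17. The native let7a array and the one labelled miR-17 methylated were the highest, and native miR-17 and the one labelled let7a methylated were the only arrays below the control. The ISG20 raw spot was at least 11.3 times the detection limit on every array.

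IFI6, a mitochondrial and endoplasmic reticulum protein that limits cell death and viral replication, was lowest on the control array. It read 7.29 there, 7.93 and 8.01 with miR-200c, 7.82 and 8.04 with miR-21, 8.51 and 7.83 with let7a, and 7.90 and 8.09 with miR-17. Native let7a stood highest and the 7 other miRNA arrays lay within 7.82 to 8.09.

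ISG15, the ubiquitin-like modifier, was also lowest on the control. It read 9.94 there, 10.62 and 10.56 with miR-200c, 10.37 and 10.22 with miR-21, 10.31 and 10.08 with let7a, and 9.99 and 10.40 with miR-17. The miR-200c arrays were the highest, and native miR-17 exceeded the control by only 0.05.

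IFIT1 was at its detection limit. It read 5.88 on the control array, 5.78 and 5.82 with miR-200c, 5.95 and 5.97 with miR-21, 6.30 and 5.93 with let7a, and 5.91 and 6.17 with miR-17, and was not detected on the control and miR-200c arrays. Against the lowest detected signal of the control, IFIT1 was at least 1.29-fold higher on native let7a and at least 1.18-fold higher on the array labelled miR-17 methylated. IFI44, an interferon-induced gene, was detected on the same pair of arrays alone, at 6.06 and 5.99, at least 1.09-fold and 1.04-fold above that bound. In each such bound the dim side is the higher of the control's lowest detected signal and the probe's own value. IFI44 was chosen after its values were seen.

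IFI27, a mitochondrial protein commonly used as an interferon marker, read 10.37 on the control array, 10.65 and 10.50 with miR-200c, 10.64 and 10.62 with miR-21, 10.58 and 10.09 with let7a, and 9.99 and 10.42 with miR-17. MX1, a dynamin-like GTPase that blocks viral nucleocapsids, read 7.58 on the control array, 7.53 and 7.53 with miR-200c, 7.39 and 7.57 with miR-21, 7.74 and 7.50 with let7a, and 7.31 and 7.69 with miR-17. BST2, which tethers budding virus to the cell surface, read 13.03 on the control array, 12.75 and 12.98 with miR-200c, 13.12 and 13.07 with miR-21, 13.08 and 12.98 with let7a, and 12.92 and 12.89 with miR-17. For all 3 the control lay inside the span of the miRNA arrays. Among the other effectors, IFI35 was lowest on the control at 7.40 against 7.41 to 7.98, and IFIT5 was highest there at 7.41 against 6.89 to 7.29, both chosen after their values were seen.

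The 3 antigen processing members had ranges of 0.27 to 0.74, with PSMB8 the smallest. PSMB9, an immunoproteasome subunit (chr6:32854192-32859851), read 9.70 on the control array, 9.66 and 9.24 with miR-200c, 9.54 and 9.74 with miR-21, 9.65 and 9.11 with let7a, and 9.19 and 9.85 with miR-17. Methylated miR-200c, native miR-17 and the array labelled let7a methylated were the lowest.

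TAP1, a subunit of the peptide transporter (chr6:32845209-32853704), read 9.11 on the control array, 8.65 and 8.85 with miR-200c, 8.83 and 8.87 with miR-21, 9.08 and 8.94 with let7a, and 8.76 and 8.44 with miR-17. The control was its highest array. PSMB8, another immunoproteasome subunit, read 9.10 on the control array, 9.05 and 9.06 with miR-200c, 9.22 and 9.07 with miR-21, 9.15 and 8.95 with let7a, and 9.10 and 9.14 with miR-17. The 2 PSMB8 probes disagreed on miR-200c, since the second read 8.56 on the control and 8.85 and 8.69 with miR-200c.

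**Figure D2:**
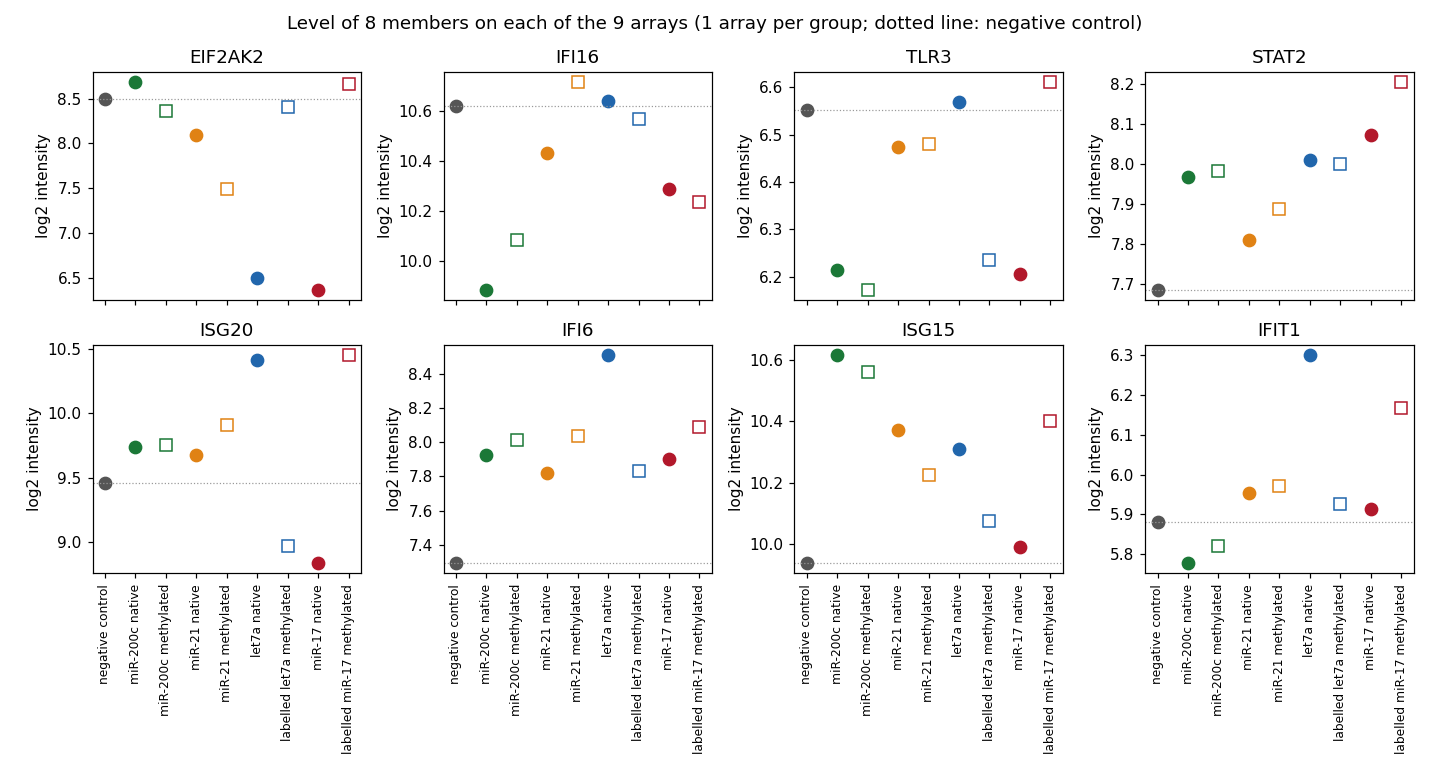
Normalized log2 intensity (vertical axes, each on its own scale) of 8 members on each of the 9 arrays, 1 point per array, with native arrays filled, methylated arrays open and a dotted line at the negative control. EIF2AK2 is lowest at 6.50 and 6.36 on native let7a and native miR-17, ISG20 is highest at 10.42 and 10.45 on native let7a and the array labelled miR-17 methylated, and STAT2, IFI6 and ISG15 are lowest on the control.

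The first comparison asks whether a miRNA duplex gave levels other than the negative control duplex did. Each of the 8 differences uses the same control array, so they are not independent, and 1 array on each side allows no test. At a log2 difference of at least 0.5 in either direction, among features detected on both arrays, 3 of 38 members differed on native miR-200c (6.75% of all features) and 4 of 39 on methylated miR-200c (5.8%). The count was 2 of 38 on native miR-21 (1.84%) and 2 of 39 on methylated miR-21 (2.44%). It was 3 of 39 on native let7a (3.25%) and 3 of 39 on the array labelled let7a methylated (5.03%). It was 4 of 39 on native miR-17 (4.58%) and 4 of 39 on the one labelled miR-17 methylated (3.64%). The members' median difference from the control lay between -0.071 and 0.038 on the 8 arrays, beside 0.0016 to 0.016 for all features.

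IFI6 was above the control by at least 0.5 on every miRNA array, by 0.63 and 0.72 with miR-200c, 0.52 and 0.75 with miR-21, 1.22 and 0.54 with let7a, and 0.61 and 0.79 with miR-17. ISG15 passed 0.5 with miR-200c alone, at 0.68 and 0.62. IFI16 was below the control by that much on the same pair of arrays, at -0.74 and -0.54. IFI35 was above it by 0.55 on methylated miR-200c and 0.58 on native miR-21.

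At a difference of at least 1, EIF2AK2 was lower than the control on 3 arrays, by -1.002 on methylated miR-21 (0.252% of features reached 1 there), -2.00 on native let7a (0.323%) and -2.14 on native miR-17 (0.67%). IFI6 on native let7a was the only other member to reach 1. On the remaining arrays 0 members reached it, beside 0.888% of features on native miR-200c, 0.716% on methylated miR-200c, 0.124% on native miR-21, and 0.661% and 0.31% on the ones labelled let7a methylated and miR-17 methylated. ISG20 was just short of 1, at 0.95 on native let7a and 0.99 on the one labelled miR-17 methylated, and was at -0.62 on native miR-17. PSMB9 was lower than the control by -0.51 on native miR-17 and by -0.59 on the array labelled let7a methylated, where IFIT5 was lower by -0.52. On the one labelled miR-17 methylated TAP1 differed by -0.67 and STAT2 by 0.52.

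The control array lay outside the span of all 8 miRNA arrays for 13 of the 40 tested members, beside 18.1% of all features. It was below all 8 for IFI35, IFI6, ISG15, STAT2, IRF7 and OAS2, which is 6 of 40 beside 11.2% of features. It was above all 8 for IFIT5, HERC5, RIGI, IFIT2, IRF1, TAP1 and MX2, which is 7 of 40 beside 6.9%. For RIGI, IFIT2 and MX2 this holds for the brighter probe only. The second probe read higher on methylated miR-21 than on the control for RIGI, read 6.07 on native miR-21 and 6.03 on the control for IFIT2, and was detected on 0 arrays for MX2. A transfected miRNA and a trait of the single control array cannot be told apart here.

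**Figure D3:**
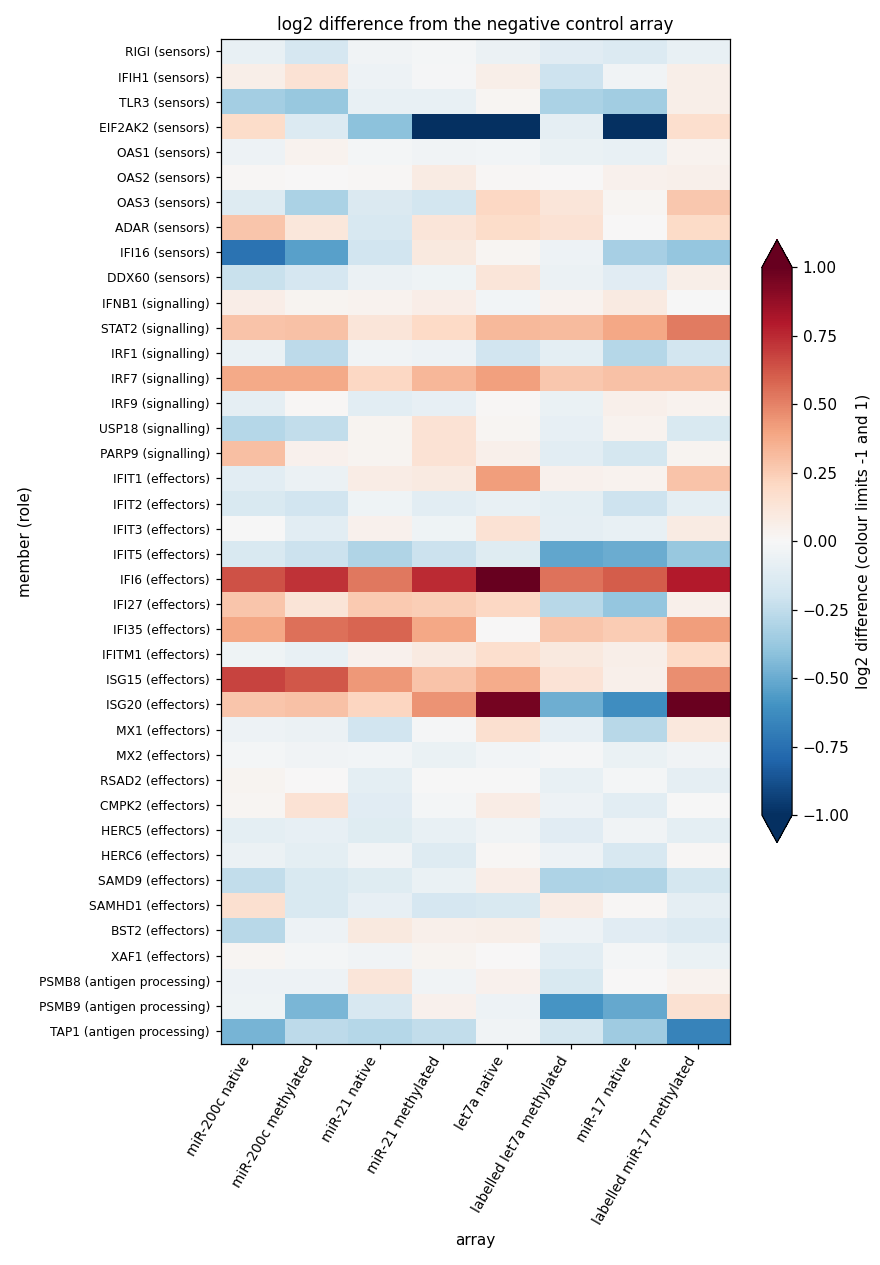
Log2 difference of each of the 8 miRNA arrays (columns) from the negative control array for the 40 tested members (rows, with their role), red for higher and blue for lower, with colours limited at -1 and 1. EIF2AK2 is darkest blue on native let7a and native miR-17 (-2.00 and -2.14), the IFI6 row is red on all 8 arrays, and most other cells are pale.

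The second comparison asks whether the members answer to the miRNA. A limma model with additive terms for miRNA and form, fitted to the 8 miRNA arrays, compared each miRNA with the mean of the other 3, with 3 residual degrees of freedom and Benjamini-Hochberg adjustment over 16072 features. No member passed an adjusted p of 0.05 in any of the 4 comparisons. Past that threshold were 3.09% of features for miR-200c and 0% for miR-21, for let7a and for miR-17. The miR-200c count of 497 features depended on single arrays: it was 2 without native miR-200c, 5 without methylated miR-200c, 7 without either miR-21 array, and 640 to 912 without any 1 of the let7a and miR-17 arrays. At an unadjusted p of 0.05 limma passed 4 of 40 members for miR-200c (17.5% of features), 1 for miR-21 (7.09%), 2 for let7a (6.4%) and 1 for miR-17 (6.12%). Leaving out 1 array at a time moved these member counts to 1 to 9 for miR-200c, 0 to 4 for miR-21, 0 to 9 for let7a and 0 to 6 for miR-17. The highest counts came without native let7a or native miR-17 for miR-200c, and without one of the arrays that stood apart for the others. No share over all features was computed at that p in these refits, so the counts are not read as a result about the members. The median log2 difference of the members was -0.016 for miR-200c, 0.0087 for miR-21, 0.017 for let7a and -0.020 for miR-17, beside 0.0070, 0.0015, -0.0097 and 0.0031 for all features. Since no label says that arrays come from separate cultures given the same duplex, a p-value reflects the spread among these arrays, which may be technical.

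With miR-200c, IFI16 differed from the other miRNAs by -0.50 (SE 0.13, limma adjusted p = 0.102) and its second probe by -0.69 (SE 0.14, limma adjusted p = 0.053 when every probe was tested). USP18 differed by -0.26 (SE 0.09, limma adjusted p = 0.199). ISG15 differed by 0.36 (SE 0.15, limma adjusted p = 0.296). Of members named after their values were seen, IFITM1 differed by -0.17 (limma adjusted p = 0.0982) and DDX60 by -0.18 (limma adjusted p = 0.214). None of these passed the threshold, so no member is called higher or lower with miR-200c in this fit.

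EIF2AK2, with the largest differences, had also the largest errors. It differed by 0.94 (SE 0.58) with miR-200c, -0.04 with miR-21, -0.49 with let7a and -0.41 with miR-17, with limma adjusted p from 0.484 to 0.996. ISG20 also had a large standard error, 0.49 in each miRNA contrast, but its differences were small and ran from -0.10 to 0.10. In both genes the native array and the array labelled methylated of let7a and of miR-17 lay far apart.

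Without both arrays that stood apart, 6 arrays and 1 residual degree of freedom remained, and let7a and miR-17 each rested on their native array. In that fit limma passed 8 members for miR-200c (14.5% of features), 2 for miR-21 (1.69%), 6 for let7a (3.06%) and 4 for miR-17 (6.33%). Member counts at an unadjusted p of 0.05 are left out for this fit, as no share over all features stands beside them. Against the mean of the other 3 miRNAs, EIF2AK2 differed by 1.79 with miR-200c, 0.82 with miR-21, -1.21 with let7a and -1.40 with miR-17. These differences are not from the control. Against the control, EIF2AK2 differed by 0.19 and -0.13 with miR-200c and by -0.41 and -1.002 with miR-21. ISG20 was higher with let7a by 0.997 (SE 0.15, limma adjusted p = 0.00989) and lower with miR-17 by -1.10 (SE 0.15, limma adjusted p = 0.0039).

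In the same 6-array fit the miR-200c calls were, besides EIF2AK2, IFI16 at -0.60 (limma adjusted p = 0.00999), TLR3 at -0.22, USP18 at -0.34, DDX60 at -0.19, IFIT1 at -0.27, IFITM1 at -0.16 and ISG15 at 0.42 (limma adjusted p = 0.0484). With let7a, IFI6 was higher by 0.63 (limma adjusted p = 0.0232), IFIT1 by 0.42, TLR3 by 0.27 and DDX60 by 0.25. With miR-17, IFI27 was lower by -0.64 (limma adjusted p = 0.039) and TLR3 by -0.21. IRF9 was lower with miR-21 by -0.12 (limma adjusted p = 0.0491). With 1 residual degree of freedom these calls lean on the spread of the other features, and they assume that each lone array varies like the rest. Several also lie near the floor. IFIT1 was not detected on the miR-200c arrays, nor IRF9 on native miR-21. TLR3, DDX60 and IFITM1 reached at most 2.17, 1.79 and 1.53 times the detection limit on any array.

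The third comparison asks whether methylation of the duplex altered the levels. Over the 4 native and methylated pairs limma passed 0 of 40 members and 0% of features, and at an unadjusted p of 0.05 it passed 0 members and 0.672% of features. EIF2AK2 had the largest member difference, 0.82 (SE 0.50, limma adjusted p = 1.0), and the members' median was -0.0058, beside -0.0014 for all features. Leaving out 1 array moved the EIF2AK2 difference from 0.33 (without either miR-17 array) to 1.30 (without either miR-21 array). In the authors' deposited table it was 1.46 (SE 0.24, limma adjusted p = 8.89e-06). In that fit the miR-200c standard errors of EIF2AK2, JAK2, PRKRA, AZI2 and GBP3 were all 0.28 or 0.29. That p-value therefore rests mostly on a spread shared between features and not on the spread of EIF2AK2 itself. The unadjusted member count was 0 or 1 with 1 array left out. Without both arrays that stood apart the EIF2AK2 value was -0.46, of the opposite sign, and again no member passed.

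Taken pair by pair, with 1 array on each side and no test, few members differed between the forms of miR-200c or of miR-21. At a log2 difference of at least 0.5, 0 of 38 members differed with miR-200c (1.16% of features) and 1 of 39 with miR-21 (0.635%). That member was EIF2AK2, at -0.60. The members' medians were -0.015 and 0.035, beside -0.0097 and 0.00059 for all features.

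The pairs labelled let7a and miR-17 differed more. With let7a, 4 of 40 members passed 0.5 (6.23% of features), EIF2AK2 at 1.91, ISG20 at -1.44, IFI6 at -0.68 and PSMB9 at -0.53. With miR-17, 3 of 40 passed it (5.94%), EIF2AK2 at 2.30, ISG20 at 1.61 and PSMB9 at 0.66. The medians of the members were -0.10 for let7a and 0.12 for miR-17, beside 0.0057 and -0.0026 for all features. EIF2AK2 was higher on the array labelled methylated in both pairs, while ISG20 and PSMB9 had opposite signs. These pairs hold the arrays that stood apart from their labels. For ISG20, IFI6 and PSMB9 the form of the duplex and the identity of the arrays cannot be told apart. For EIF2AK2 both native arrays (6.50 and 6.36) lay below both arrays labelled methylated (8.41 and 8.66), whichever pairing is taken. The cause of that difference was not tested.

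**Figure D4:**
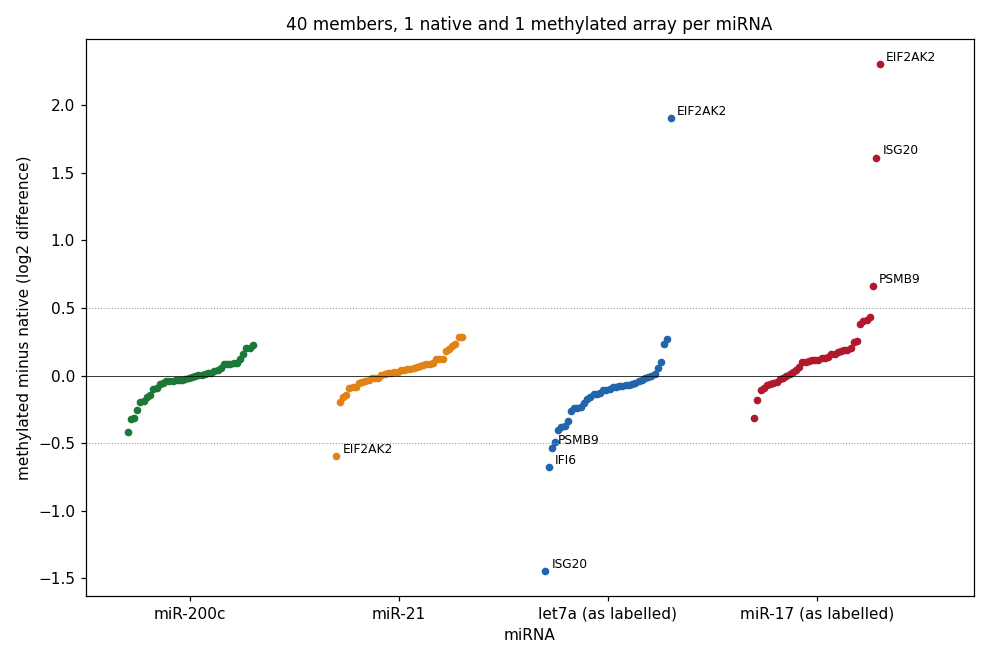
Log2 difference of the methylated from the native array (vertical axis) for the 40 tested members, sorted within each miRNA (horizontal axis), with dotted lines at -0.5 and 0.5 and names for members past them. EIF2AK2 reaches 1.91 and 2.30 with let7a and miR-17 as labelled, and ISG20 lies at -1.44 and 1.61. No miR-200c point passes a line.

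Set without regard to the form, 4 separate arrays give a pair of differences that share no array, native let7a minus native miR-17, and the array labelled miR-17 methylated minus the array labelled let7a methylated. This pairing was chosen because the profiles of all features pair the arrays so, and is a description with no test. ISG20 differed by 1.58 and 1.48, and was the only member with both differences at least 0.5 (1.87% of features). No member had both at -0.5 or lower (1.14%). Both differences were above 0 for 27 of 40 members (31% of features) and both below 0 for 3 (34.5%).

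The members above 0 in both lay in several roles, and some were close to 0, such as HERC5 at 0.0056 and 0.015. Of the effectors, IFI27 differed by 0.60 and 0.33, IFI6 by 0.61 and 0.25, MX1 by 0.44 and 0.19, IFIT1 by 0.39 and 0.24, and ISG15 by 0.32 and 0.33. The sensor TLR3 differed by 0.36 and 0.38, and the immunoproteasome gene PSMB9 by 0.46 and 0.74. The members below 0 in both were SAMHD1 at -0.17 and -0.16, IFNB1 at -0.12 and -0.04, and USP18 at -0.01 and -0.07. TAP1 and IFI16 had opposite signs, TAP1 at 0.32 and -0.49 and IFI16 at 0.35 and -0.34. EIF2AK2 differed by 0.14 and 0.26, since its low arrays were both native ones.

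**Figure D5:**
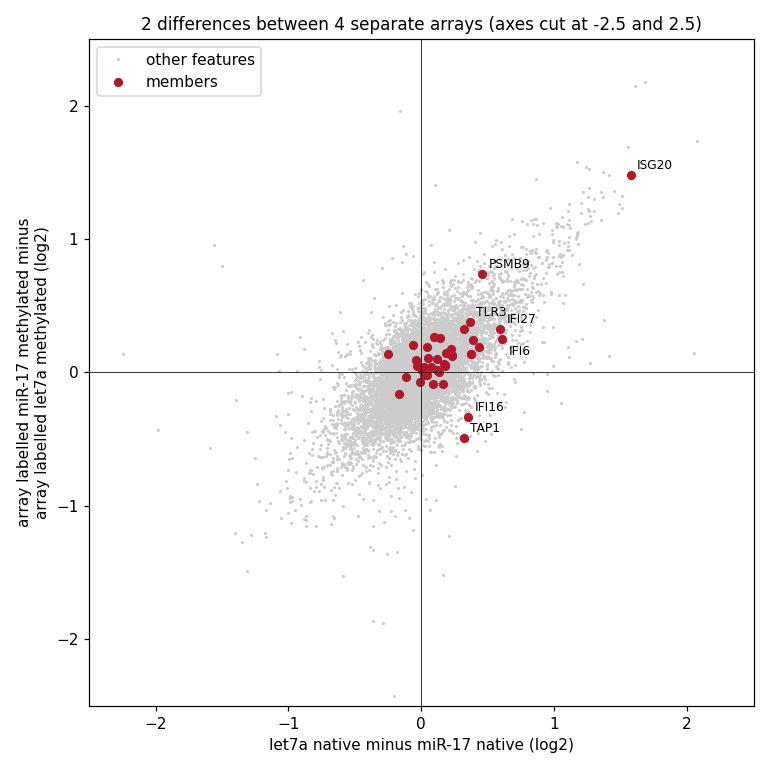
Native let7a minus native miR-17 (horizontal axis) against the array labelled miR-17 methylated minus the array labelled let7a methylated (vertical axis), in log2 units, for the 40 tested members (red) and all other features (grey), with axes cut at -2.5 and 2.5. ISG20 lies at 1.58 and 1.48, and 27 of the 40 members lie in the upper right quadrant.

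Other genes of the pathway, taken as lists by function, were tested in the same fit. Of 16 genes upstream of interferon, 15 were tested and 0 passed the threshold in any of the 5 contrasts, and STING1, the adaptor of DNA sensing, was detected on no array. PRKRA, the protein activator of PKR, differed by -0.39 (SE 0.10, limma adjusted p = 0.0934) and AZI2, a TBK1 adaptor, by 0.43 (SE 0.10, limma adjusted p = 0.0904) with miR-200c. Of 14 interferon receptor and Janus kinase genes, 13 were tested and 1 passed, for miR-200c, where 3.09% of all features passed. JAK2, a kinase of the interferon gamma receptor, fell with miR-200c by 0.34 on the log2 scale (SE 0.06, limma adjusted p = 0.0472). It read 6.98 on the control array, 6.49 and 6.55 with miR-200c, and 6.76 to 6.97 on the other 6 arrays, so that the miR-200c arrays lay below all others. The JAK2 call was lost without either miR-200c array, either miR-21 array or native miR-17, with limma adjusted p from 0.0559 to 0.534, and was kept without each of the other 3 miRNA arrays. It was also lost with no detection filter (limma adjusted p = 0.058) and in the authors' deposited table (limma adjusted p = 0.5).

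Of 38 further interferon-induced genes 31 were tested, of 15 antigen presentation genes 11, of 8 interferon ligand genes 3 and of 7 cytokine genes 1, and none of these passed in any of the 5 contrasts. Without both arrays that stood apart, limma passed for miR-200c 2 of the 15 genes upstream of interferon (PRKRA and AZI2), 1 of the 13 receptor and kinase genes (JAK2, -0.34, adjusted p = 0.0046), 8 of the 31 further induced genes, 2 of the 11 antigen presentation genes, 0 of the 3 ligand genes and the 1 cytokine gene, CXCL8, beside 14.5% of all features. In that fit GBP3 was higher with miR-200c by 0.92 (SE 0.10, limma adjusted p = 0.000294). CXCL8 also passed for miR-21, let7a and miR-17. Besides it, 0 genes of these lists passed for miR-21, 2 for let7a (GBP3 and SAMD9L) and 5 for miR-17 (GBP3, IFNAR2, RNF135, SAMD9L and TRIM5), and 0 passed for methylated against native. GBP3, a guanylate-binding GTPase, differed by 0.86 (SE 0.39, limma adjusted p = 0.322) with miR-200c. It read 8.75 on the control array, 8.83 and 8.68 with miR-200c, 7.78 and 7.75 with miR-21, 8.52 and 7.41 with let7a, and 7.32 and 8.61 with miR-17. Native miR-17 and the array labelled let7a methylated were its lowest arrays. CXCL8, the neutrophil chemokine, read 7.39 on the control array, 6.56 and 6.69 with miR-200c, 7.29 and 7.47 with miR-21, 7.19 and 6.41 with let7a, and 6.38 and 7.25 with miR-17. The interferon-induced chemokines CXCL10 and CXCL11, along with CCL5, IL6 and TNF, were detected on no array, and IFNA1 and IFNG were detected on none. A gene that passes no detection limit may still be expressed below it.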

How the data were processed

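Each of 9 one-colour 3D-Gene arrays measured total RNA of 1 group. Per the file headers, the deposited scanner files hold the raw median intensity of 27456 spots at 635 nm, with no background subtracted. The authors also deposited a table of processed intensity values. No source used here gives its making, but each column was a straight line in that array's spot intensity, scaled to a median of 25. It served as an alternative.

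With limma 3.58.1 (R 4.3.3), spot intensities underwent normexp background correction with an offset of 50 and quantile normalization between arrays before log2. Control spots and 9 marked outlier probes were dropped. A single gene symbol was annotated for 20236 of 24460 probes, and 2899 symbols were updated through a gene table of GRCh38.p14. Probes detected on at least 5 arrays were kept (17684), and the brightest probe stood for a gene, leaving 16072 features. Of 6 members with several probes, the second probe is described for IFI16, PSMB8, RIGI, IFIT2 and MX2.

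The additive limma model had miRNA and form as terms, so the miRNA is the block of each native and methylated pair, and the variance prior had an intensity trend. The script was tested on simulated data. The threshold was an adjusted p of 0.05, and single arrays were described at log2 differences of 0.5 and 1. Alternatives were median scaling, subtraction of the blank mean, an offset of 16, other detection filters, every probe, the authors' table, leaving out each array, leaving out both arrays that stood apart, and no replicate block.

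Levels on all arrays are given for members past the threshold, the 3 with the largest range in each role, the 3 brightest and fixed members of each role. Members, lists and alternatives were chosen with earlier results of these data known. The number of arrays limits the precision.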

Additional observations from a re-analysis of the deposited data

Results flagged for a closer look

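The methylated minus native difference was at least 0.5 in size in opposite directions between miRNAs for 3 members, each from 1 array per side, and the difference between the miRNAs was not tested. For EIF2AK2 it was -0.60 with miR-21, 1.91 with let7a and 2.30 with miR-17. For ISG20 it was -1.44 with let7a and 1.61 with miR-17. For PSMB9 it was -0.53 with let7a and 0.66 with miR-17. The let7a and miR-17 values use the arrays whose profiles over all features went against their labels, and the miR-21 value does not. The EIF2AK2 level was lower on native let7a and native miR-17 than on both arrays labelled methylated, whichever pairing is taken.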

How the results depend on the processing

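Each miRNA contrast and the methylated contrast passed 0 members. Median scaling, subtraction of the blank mean, an offset of 16, other detection filters and every probe also passed 0 members in all 5. The authors' deposited table, tested with limma, passed 1 member for miR-200c (EIF2AK2, 1.52, adjusted p = 2.17e-05) and 1 for methylated against native (EIF2AK2, 1.46, adjusted p = 8.89e-06). No share over all features stands beside these calls, and their p-values rest mostly on a spread shared between features, as given above. In the refits that follow, each one with a member call also passed more features for miR-200c than the full fit, as given above. Neither set of member calls is therefore read as a result about the members. Leaving out 1 array gave 0 to 3 members for miR-200c and 0 for the other 4 contrasts: without native let7a CMPK2 and IFIH1 passed, without the array labelled let7a methylated DDX60, IFIT1 and IFITM1, and without native miR-17 IFITM1. Without both arrays that stood apart, 8 members passed for miR-200c, 2 for miR-21, 6 for let7a and 4 for miR-17, and EIF2AK2 methylated against native was -0.46. Over the 4 pairs, the fit with no replicate block (without the miRNA term) again passed 0. Against the control, 25 of 310 member differences reached 0.5, beside 1.84% to 6.75% of all features per array. The count was 59 with subtraction of the blank mean and 72 of 312 in the authors' table. For methylated minus native it was 8 of 157, beside 0.635% to 6.23% of all features per pair. It was 24 with subtraction, 15 with an offset of 16 and 47 of 156 in the authors' table. These alternatives were counted over members only, so the rise is not read as a result about the members. The offset compresses dim differences by construction, so subtraction gave EIF2AK2 -3.06 on native let7a and -3.44 on native miR-17. Detection of 38 of 44 members on all arrays moved to 38 and 39 under the other limits.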

Other observations

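Values of 3 further genes of the pathway, chosen after their values were seen, follow. SHISA5, an interferon-induced membrane protein gene, read 9.14 on the control array, 9.28 on native miR-21 and 7.71 on methylated miR-21, and its miR-21 contrast was -0.76 (limma adjusted p = 0.811). IFNGR2, the signalling chain of the interferon gamma receptor, read 10.44 on the control array and 9.57 to 9.96 on the 8 miRNA arrays. B2M, the light chain of class I molecules, read 13.33 on the control array and 13.52 to 14.10 on the miRNA arrays.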
